A study of Mus musculus with 12 samples.

Results

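Genes of antigen presentation on MHC class I were followed in primary mouse chondrocytes, the cells that make cartilage matrix. They are picked out by symbol: H2-K1, H2-D1, B2m, Tap1, Tap2, Tapbp, Psmb8, Psmb9, Psmb10 and Nlrc5. These are 10 of the 57010 Ensembl gene IDs in the count tables. RNA was captured by poly(A) selection and sequenced from 12 libraries in 3 groups of 4. All of the cells carry the label wild type as genotype. One group is labelled Control, and what its cells received is not given in the sources used here. A second group, called WT here, was transfected with a wild-type plasmid, and the third, called SIRT5F101L, with a plasmid carrying the F101L mutant form of SIRT5. The SIRT5 protein, found mostly in mitochondria, takes malonyl, succinyl and glutaryl groups off lysines. The strain, age and sex of the mice, the time after transfection and the plasmid backbone are not given in the sources used here, nor is it stated whether the libraries of a group came from separate animals or cultures.

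Class I molecules show samples of a cell's own proteins to CD8 T cells. Proteasomes cut proteins into peptides, the Tap1 and Tap2 transporter carries the peptides into the endoplasmic reticulum, tapasin (Tapbp) helps load them, and a heavy chain paired with beta-2-microglobulin (B2m) takes them to the surface. In the immunoproteasome, the catalytic subunits Psmb8, Psmb9 and Psmb10 stand in for the constitutive Psmb5, Psmb6 and Psmb7. Nlrc5 is the transactivator of class I genes, and interferons are the best known inducers of the whole set.

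In both plasmid groups the class I heavy chains, tapasin, Nlrc5 and Psmb8 were higher than in Control, while the peptide transporter gene Tap1 was lower. Its partner Tap2 was lower in SIRT5F101L, and its call in WT, where the libraries overlapped with Control, was lost in 7 of 19 alternative analyses. H2-K1 was 2.08-fold and H2-D1 1.77-fold higher in WT, Nlrc5 was 3.32-fold higher, and Tap1 was 1.41-fold lower. Psmb9, whose start site lies beside that of Tap1, was not called in WT and was 1.39-fold lower in SIRT5F101L, with overlapping libraries and a call that was lost in 6 of 19 alternatives. B2m and Psmb10 were listed at 0 counts in all 12 libraries. None of the members was called between SIRT5F101L and WT, where 6 of 14253 tested genes (0.0421%) were called.

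The start regions of H2-K1 and H2-D1, and the stretch between the start sites of Psmb9 and Tap1, are shown because the first pair was higher and Tap1 lower in the same libraries. The sequences are from RefSeq on GRCm38.p6, whose table held 8 of the 10 members (Tap2 and Nlrc5 were not matched). The authors' counts were made on another build, and the sequences are the reference strain's. Each of the first 2 lines gives the 250 bases before a start site on the gene's own strand; of the start sites listed for H2-K1, the one numbered 2 is shown. The region of Tap1 and Psmb9 is given on the strand of Tap1. Capitals mark matches to GAAANNGAA (core of the interferon-stimulated element), GGGNNTTCC (NF-kB core), TTCNNNGAA (gamma-activated site core), CCAAT and TGACG (part of a cyclic AMP response element), searched on both strands.
H2-K1, chr17:34000334-34000583, minus strand: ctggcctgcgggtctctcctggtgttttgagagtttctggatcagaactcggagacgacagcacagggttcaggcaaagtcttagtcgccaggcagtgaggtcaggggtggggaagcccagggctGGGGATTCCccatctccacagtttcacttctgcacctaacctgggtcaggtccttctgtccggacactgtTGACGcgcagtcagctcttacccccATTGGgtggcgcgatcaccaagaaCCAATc
H2-D1, chr17:35262844-35263093, plus strand: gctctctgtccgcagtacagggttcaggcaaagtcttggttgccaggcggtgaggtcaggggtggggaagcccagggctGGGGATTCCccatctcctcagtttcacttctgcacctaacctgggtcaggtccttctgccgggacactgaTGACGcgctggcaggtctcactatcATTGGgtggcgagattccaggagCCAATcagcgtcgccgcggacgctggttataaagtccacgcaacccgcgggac
Psmb9 to Tap1, chr17:34187331-34187555, plus strand: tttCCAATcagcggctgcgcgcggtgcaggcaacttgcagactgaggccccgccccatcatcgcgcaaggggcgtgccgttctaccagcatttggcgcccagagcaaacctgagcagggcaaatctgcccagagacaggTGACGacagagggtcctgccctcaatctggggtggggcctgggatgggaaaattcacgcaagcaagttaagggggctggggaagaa

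The H2-K1 and H2-D1 stretches share an identical run of 47 bases. Both hold an NF-kB core, at -125 and -171 from the start, a TGACG at -55 and -101, and CCAAT matches. The 225 bases between the Psmb9 and Tap1 start sites hold 1 CCAAT and 1 TGACG and none of the other 3 motifs. Of the 8 members with a sequence, 6 held CCAAT, against 33.8% of the 32851 start regions in the table, and 5 held TGACG, against 17.8%; Tap1 and Psmb9 share theirs. H2-K1 and H2-D1 were the 2 members with the NF-kB core (4.98% of all start regions), B2m was the 1 with GAAANNGAA (7.13%), and Psmb8 the 1 with TTCNNNGAA (7.02%). No base of these regions lay in more than 1 kind of motif. A match describes the letters in this window and says nothing of which factors bound there. Only these exact patterns were searched, and other forms of the same elements were left unmarked. The lack of GAAANNGAA in the H2-K1 and H2-D1 stretches therefore does not show that they lack an interferon element. Whether they hold another form of it was not tested.

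The libraries held 15095357 to 24242139 counts each. Levels are given as CPM, counts scaled to library size by TMM: 1 count was worth 0.0401 to 0.0649 CPM, and the floor of 3 counts 0.12 to 0.195 CPM. Of 14253 genes that passed the filter on low counts, 28.7% were called higher and 28.1% lower in WT than in Control at an adjusted p under 0.05 by edgeR, and 53.5% had no overlap between the libraries of the groups. For SIRT5F101L against Control the shares were 30.0% higher, 30.7% lower and 51.3% without overlap. Between SIRT5F101L and WT, 6 genes (0.0421%) were called in either direction, 1701 had an unadjusted p under 0.05, and 4.02% had no overlap. SIRT5F101L replicate 1 stood apart from its group and nearer to WT. On the first principal component (72.74% of the variance) it was at 33.43, beside the other 3 at 40.01 to 40.73 and WT at 34.31 to 37.26. On the second (5.66%) it was at 20.34, beside the other 3 at -23.5 to -17.03 and WT at -1.07 to 20.05. Whether this library carries the right label was not tested. Values without SIRT5F101L replicate 1 are therefore given below for some of the genes. The counts of Sirt5 were 9 to 16 in Control, 1 to 9 in WT and 9 to 19 in SIRT5F101L, with no call in any comparison. These levels do not check the labels, because the plasmids' sequences are not given, so the groups are named here as labelled.

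Summed over 14 chondrocyte markers, the level was 9330 to 11700 CPM in Control, 2850 to 2970 in WT and 2320 to 2570 in SIRT5F101L. All 14 had counts. Of them, 12 were called lower in each plasmid group, with 2 higher in WT and 1 in SIRT5F101L. Col2a1, the main cartilage collagen, was at 6710 ± 690 CPM in Control, 1660 ± 56.2 in WT and 1310 ± 95.1 in SIRT5F101L (mean ± SD, n = 4 each). Markers of leukocytes and macrophages, cells that express class I genes as well, summed to 178 to 216 CPM in Control, 136 to 154 in WT and 143 to 184 in SIRT5F101L. Itgam, Cd3e and Nkg7 were among those listed at 0 in every library, and 11 of the 15 markers had counts in every group. Of the 10 tested, 8 were lower and 1, Cd14, higher in WT, and 7 were lower and Cd14 higher in SIRT5F101L. Endothelial markers summed to 3.17 to 4.81 CPM over the 12 libraries, with Cldn5 at 0 in both plasmid groups. Fibroblast and osteoblast markers summed to 17300 to 20500 CPM in Control, 6060 to 6880 in WT and 5910 to 6860 in SIRT5F101L. The sums of the chondrocyte and of the fibroblast and osteoblast markers separated Control from both plasmid groups, and that of the leukocyte markers separated Control from WT. The chondrocyte sum also lay lower in SIRT5F101L than in WT without overlap. Of those 14 markers, 1 (Col11a2) was called lower in SIRT5F101L than in WT, beside 0.0421% of all genes called in either direction. Endothelial sums overlapped in all groups. The part of these markers in the results on class I genes was not tested.

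Of the 10 members, 8 passed the filter. In WT against Control 5 were called higher (H2-K1, H2-D1, Tapbp, Psmb8 and Nlrc5), 2 lower (Tap1 and Tap2) and 1 was not called (Psmb9). In SIRT5F101L against Control the same 5 genes were higher, and Tap1, Tap2 and Psmb9 were lower. Beside the shares called over the whole table, these counts over 8 genes are a description and not a result particular to them. The median log2 fold change of the 8 was 0.62 (range -0.49 to 1.73) in WT and 0.58 (range -0.48 to 1.92) in SIRT5F101L, beside -0.013 and -0.017 over all genes tested. The groups had no overlap for 6 of the 8 genes in WT, beside 53.5% of all genes, and for 7 in SIRT5F101L, beside 51.3%. Both comparisons share the Control libraries and are not independent of each other.

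**Figure D1:**
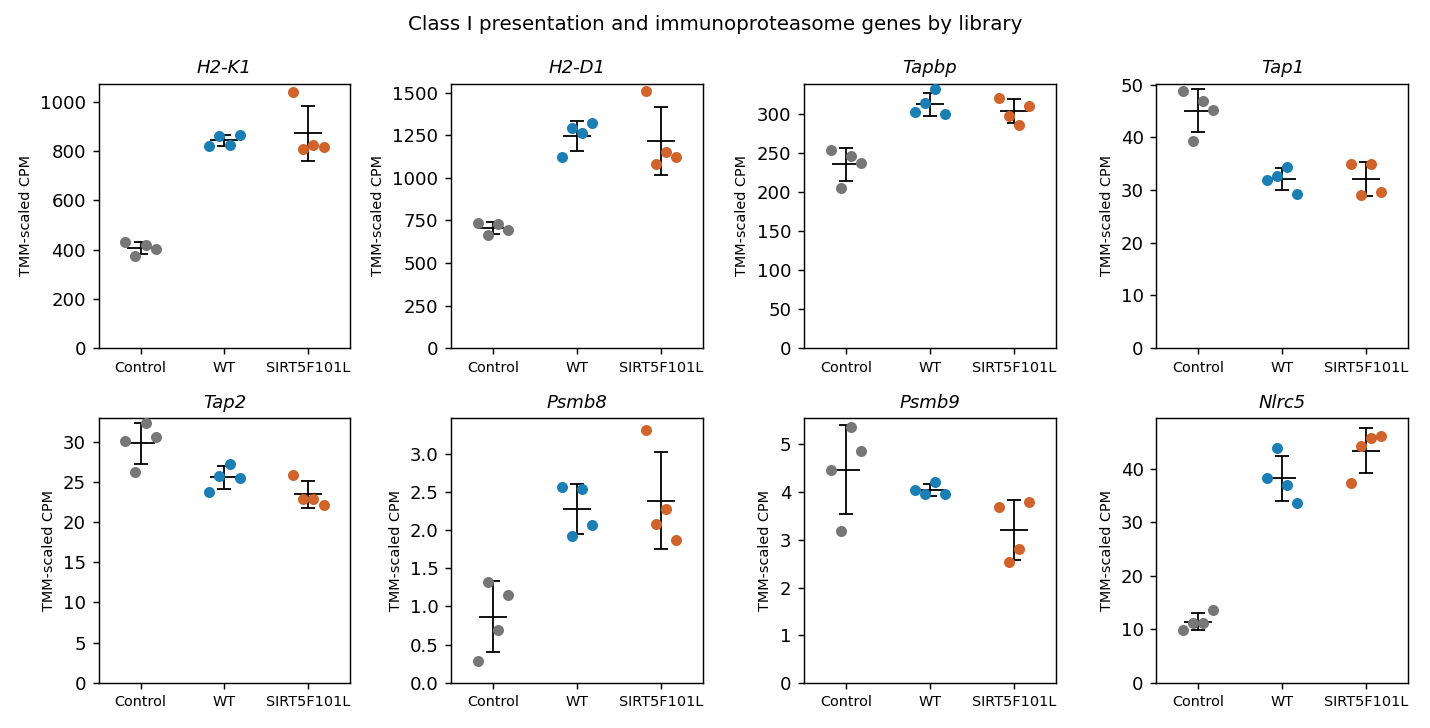
Library values of the 8 members that passed the filter, 1 panel per gene, in TMM-scaled CPM by group. Points are libraries (4 per group), and bars give the mean and SD. H2-K1, H2-D1, Tapbp, Psmb8 and Nlrc5 lie higher in both plasmid groups than in Control, Tap1 lies lower in both, and the high SIRT5F101L points of H2-K1 (1040) and H2-D1 (1510) are replicate 1.

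H2-K1 (ENSMUSG00000061232) and H2-D1 (ENSMUSG00000073411) encode the classical heavy chains that hold the peptide. H2-K1 was at 432, 372, 418 and 402 CPM in the Control libraries, at 820, 860, 826 and 865 in WT, and at 1040, 809, 825 and 815 in SIRT5F101L. Every plasmid library lay above every Control library, and SIRT5F101L replicate 1 was the highest of the 12. Fewer cells of a type and less RNA per cell cannot be told apart in such bulk samples, here or in the results that follow. The log2 fold change against Control was 1.05 (SE 0.08, adjusted p = 2.73e-10) in WT and 1.10 (SE 0.08, adjusted p = 1.26e-10) in SIRT5F101L. Without SIRT5F101L replicate 1 the value for the mutant was 1.01. Among the fold changes of all genes tested, H2-K1 stood at percentile 91.2 in each comparison.

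H2-D1 was at 735, 663, 727 and 694 CPM in Control, at 1120, 1290, 1260 and 1320 in WT, and at 1510, 1080, 1150 and 1120 in SIRT5F101L. The groups did not overlap with Control. Its log2 fold change was 0.82 (SE 0.09, adjusted p = 1.09e-07) in WT and 0.79 (SE 0.09, adjusted p = 1.88e-07) in SIRT5F101L, or 0.67 without SIRT5F101L replicate 1. Class I genes resemble each other. In the longest H2-D1 transcript 26.1% of the bases were repeated at 95% identity or more in another gene, H2-Q7 above all (13.3%), and in H2-K1 2.1%, so reads of H2-D1 could have been split between genes.

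B2m (ENSMUSG00000060802), the light chain that every classical class I molecule needs, had 0 counts in each library. Psmb10 (ENSMUSG00000031897) did too. So did 3 of 71 autosomal ribosomal protein genes, Rpl35, Rpl35a and Rps10, which all cells use. A listed 0 is therefore not read here as absent RNA, and its cause was not tested. In GENCODE M21, on GRCm38, neither gene has exons shared with another gene, and neither has a copy of 95% identity.

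Tapbp (ENSMUSG00000024308) was at 254, 205, 246 and 238 CPM in Control, at 303, 315, 333 and 300 in WT, and at 321, 298, 286 and 311 in SIRT5F101L. All 8 plasmid libraries were above the highest Control library, by a smaller step than for the heavy chains. Against Control the log2 fold change was 0.41 (SE 0.07, adjusted p = 3.17e-05) in WT and 0.37 (SE 0.07, adjusted p = 9.43e-05) in SIRT5F101L. Of its exon bases, 29% also belong to other genes, Zbtb22 among them, and the strand setting of the counting is not given in the sources used here.

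The transporter genes went the other way. Tap1 (ENSMUSG00000037321) was at 48.9, 39.4, 46.9 and 45.2 CPM in Control, at 31.9, 32.6, 34.3 and 29.3 in WT, and at 35, 29, 34.9 and 29.7 in SIRT5F101L. No plasmid library reached the lowest Control library. Tap1 fell by a log2 fold change of -0.49 (SE 0.09, adjusted p = 6.23e-05) in WT and -0.48 (SE 0.09, adjusted p = 6.79e-05) in SIRT5F101L.

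Tap2 (ENSMUSG00000024339), the partner of Tap1 in the transporter, was at 30.1, 26.2, 32.3 and 30.6 CPM in Control, at 23.8, 25.8, 27.2 and 25.5 in WT, and at 25.9, 22.9, 22.9 and 22.1 in SIRT5F101L. WT overlapped with Control, and SIRT5F101L lay just below it. The log2 fold change was -0.34 (SE 0.08, adjusted p = 0.00132) in SIRT5F101L and -0.22 (SE 0.08, adjusted p = 0.0292) in WT. The call in WT was lost with no filter on low counts (adjusted p = 0.0661). It was also lost on leaving out Control replicate 1 (0.0578), 3 (0.101) or 4 (0.062), or WT replicate 1 (0.0911), 2 (0.0514) or 4 (0.0543). Of the exon bases of Tap2, 18.5% lie under predicted genes of the other strand, and 3.9% of those of Tap1 under Psmb9.

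Psmb8 (ENSMUSG00000024338), the immunoproteasome counterpart of Psmb5, was a rare transcript: 5, 26, 13 and 21 counts in Control, 52, 30, 44 and 40 in WT, and 62, 32, 57 and 33 in SIRT5F101L. That is 0.29, 1.32, 0.692 and 1.15 CPM, then 2.56, 1.92, 2.54 and 2.06, then 3.31, 2.08, 2.28 and 1.87. The plasmid groups lay wholly above Control, whose 4 libraries varied most of all members (SD 53.8% of the mean). Psmb8 rose by a log2 fold change of 1.38 (SE 0.33, adjusted p = 0.00133) in WT and 1.45 (SE 0.33, adjusted p = 0.000716) in SIRT5F101L, with the widest error of the 8 genes. Of its exon bases, 14.7% lie under a predicted gene of the other strand.

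Psmb9 (ENSMUSG00000096727), the counterpart of Psmb6, was at 4.47, 3.19, 5.37 and 4.86 CPM in Control, at 4.04, 3.97, 4.21 and 3.96 in WT, and at 3.69, 2.53, 2.81 and 3.79 in SIRT5F101L. Control spanned the WT libraries and overlapped with SIRT5F101L. The log2 fold change of -0.14 (SE 0.18) in WT was not called (adjusted p = 0.526), and that of -0.48 (SE 0.19) in SIRT5F101L was (adjusted p = 0.0316). The latter call was lost when the 8 libraries compared were fitted alone (0.0675) or without Control replicate 1 (0.0532), 3 (0.111) or 4 (0.0728), or SIRT5F101L replicate 2 (0.0926) or 3 (0.0936).

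Nlrc5 (ENSMUSG00000074151), the class I transactivator, had the highest fold change of the 8 genes in both comparisons. It was at 9.87, 11.1, 11.2 and 13.7 CPM in Control, at 38.3, 43.9, 37 and 33.6 in WT, and at 37.3, 44.3, 45.8 and 46.2 in SIRT5F101L. Even the lowest plasmid library (33.6) was above the highest Control library (13.7). The log2 fold change was 1.73 (SE 0.11, adjusted p = 2.63e-11) in WT and 1.92 (SE 0.11, adjusted p = 4.57e-12) in SIRT5F101L, at percentiles 95.8 and 96.4 of all genes tested.

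**Figure D2:**
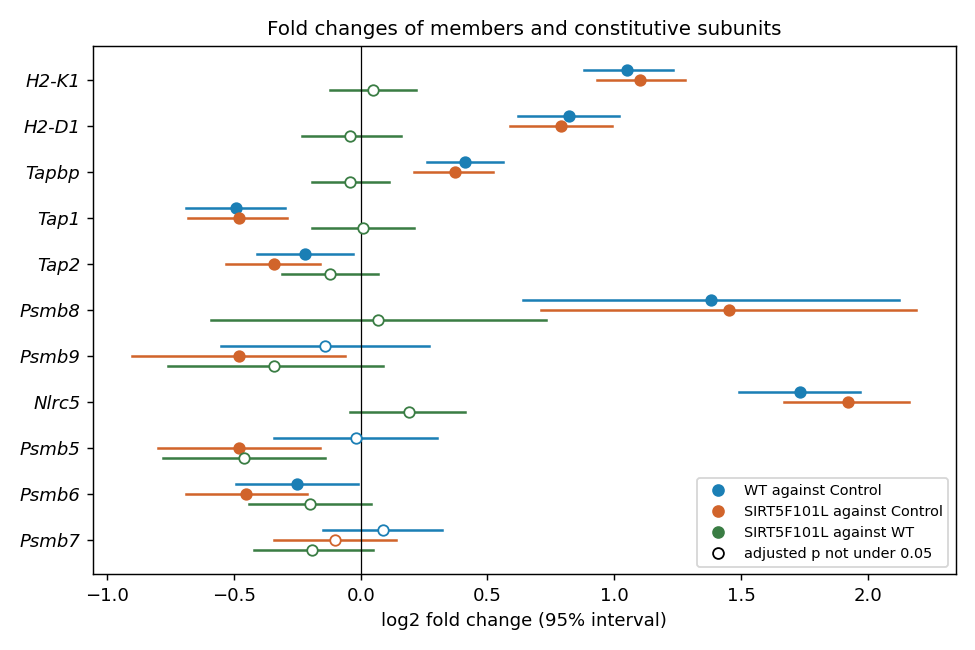
Log2 fold changes of the 8 tested members and of Psmb5, Psmb6 and Psmb7 in the 3 comparisons, with bars for the 95% interval from the edgeR fit. Nlrc5 (1.73 and 1.92), Psmb8, H2-K1, H2-D1 and Tapbp lie above 0 against Control and Tap1 and Tap2 below, while every member's interval for SIRT5F101L against WT spans 0.

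Divided by the length of the longest coding transcript, so that genes can be set side by side, the Control levels ran in the order H2-D1 (335 ± 15.8 CPM per kb), H2-K1 (251 ± 15.7), Tapbp (81.4 ± 7.53), Tap1 (15.3 ± 1.39), Tap2 (8.66 ± 0.743), Psmb9 (3.31 ± 0.689), Nlrc5 (1.52 ± 0.211) and Psmb8 (0.529 ± 0.285), each mean ± SD over 4 libraries. Neighbours in this order differed by more than their SDs. In WT, H2-D1 (593 ± 41) and H2-K1 (521 ± 14.3) stayed first, and Nlrc5 (5.04 ± 0.567) stood above Psmb9 (2.99 ± 0.0867). In SIRT5F101L, H2-D1 (579 ± 95.4) and H2-K1 (539 ± 69.2) did not differ beyond their spread, and Nlrc5 (5.72 ± 0.548) was below Tap2 (6.82 ± 0.476). The lengths come from GENCODE M21 on GRCm38, not the authors' annotation.

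None of the 8 tested members was called between SIRT5F101L and WT by edgeR, none had an unadjusted p under 0.05, and DESeq2 called none. Over all 14253 genes, edgeR called 6 (0.0421%), 1701 had an unadjusted p under 0.05, and DESeq2 called 44. With so few calls in the whole table, the lack of calls is not particular to the members. The median log2 difference was -0.01, with a range of -0.34 to 0.19. The 95% intervals were -0.12 to 0.22 for H2-K1, -0.23 to 0.16 for H2-D1, -0.19 to 0.11 for Tapbp, -0.19 to 0.21 for Tap1 and -0.31 to 0.07 for Tap2. They were wider for Nlrc5 (-0.04 to 0.41), Psmb9 (-0.76 to 0.09) and Psmb8 (-0.59 to 0.73). Psmb9 was the 1 member of 8 without overlap between SIRT5F101L and WT, beside 4.02% of all genes; its SIRT5F101L libraries lay below. Without SIRT5F101L replicate 1 there was still no call, the nearest being Nlrc5 (log2 difference 0.25, adjusted p = 0.0516) and H2-D1 (-0.16, adjusted p = 0.0836).

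None of the 3 constitutive catalytic subunits was called higher, beside 28.7% of all genes in WT and 30.0% in SIRT5F101L. In WT 1 was lower and in SIRT5F101L 2, beside 28.1% and 30.7% of all genes. Psmb5, the chymotrypsin-like subunit, was at 46.1 ± 3.34 CPM in Control, 45.5 ± 4.78 in WT and 33.1 ± 10.3 in SIRT5F101L. Its SIRT5F101L libraries were at 47.8, 24, 31 and 29.6, with replicate 1 at the Control level. The log2 fold change was -0.02 (adjusted p = 0.916) in WT and -0.48 (SE 0.14, adjusted p = 0.00662) in SIRT5F101L. Without replicate 1 the SIRT5F101L value was -0.7 (adjusted p = 6.22e-08). Psmb6, the caspase-like subunit, was at 134 ± 8.92, 112 ± 11.5 and 97.8 ± 20.7 CPM, with log2 fold changes of -0.25 (SE 0.11, adjusted p = 0.0495) and -0.45 (SE 0.11, adjusted p = 0.00114). The second value was -0.6 (adjusted p = 1.15e-08) without SIRT5F101L replicate 1. The call of Psmb6 in WT was lost in 10 of 19 alternatives, namely DESeq2 (0.0521), the robust prior (0.0817) and leaving out any Control library (0.0506 to 0.125), WT replicate 1, 2 or 3 (0.0611 to 0.144) or SIRT5F101L replicate 3 (0.0574).

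Psmb7, the trypsin-like subunit, was at 69.3 ± 6.17, 73.6 ± 6.67 and 64.6 ± 12.5 CPM and was not called in either comparison (log2 fold change 0.09, adjusted p = 0.494, and -0.10, adjusted p = 0.423). Without SIRT5F101L replicate 1 it was lower in SIRT5F101L than in Control (-0.24, adjusted p = 0.00496). Against WT, leaving out that library brought calls for 2212 genes over the whole table (15.2%) and for all 3 subunits: -0.68 for Psmb5 (adjusted p = 6.56e-06, and 0.33 with the library), -0.35 for Psmb6 (0.00113, and 0.456) and -0.33 for Psmb7 (0.00255, and 0.468). Psmb5 was also called against WT with no filter on low counts (adjusted p = 6.08e-05). Of the longest Psmb5 transcript, 88.4% is repeated at 95% identity or more, mainly in Gm3375, so its counts are uncertain.

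A ratio of 2 genes within a library does not depend on library scaling. The log2 ratio of Psmb8 to Psmb5 counts was -7.25, -5.03, -6.11 and -5.19 in Control, -3.93, -4.56, -4.15 and -4.62 in WT, and -3.84, -3.51, -3.75 and -3.96 in SIRT5F101L. All plasmid libraries lay above all Control libraries. The mean difference from Control was 1.58 in WT and 2.13 in SIRT5F101L, each with p = 0.0286 by a 2-sided exact permutation test. That is the smallest p that 4 against 4 libraries allow, and neither passed after adjustment over 9 such tests (0.129; 3 of the 9, those of Psmb10, were void). SIRT5F101L and WT overlapped, and their difference of 0.55 had p = 0.0571 by the same exact permutation test (adjusted 0.171). Between these 2 groups the log2 fold change was 0.07 for Psmb8 and -0.46 for Psmb5, neither called. The uncertainty of the Psmb5 counts carries over to every value of this ratio. Without Control replicate 1, which has 5 Psmb8 counts, the differences from Control were 1.13 and 1.68. Per length, Psmb8 was at a fraction 0.0106 of the level of Psmb5 in Control, 0.028 in WT and 0.0404 in SIRT5F101L, and so stayed the rarer of the pair throughout.

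The log2 ratio of Psmb9 to Psmb6 was -4.92 ± 0.28 in Control, -4.78 ± 0.18 in WT and -4.92 ± 0.32 in SIRT5F101L (mean ± SD, n = 4). The groups overlapped in all 3 comparisons, with differences of 0.14, 0 and -0.14 and exact permutation p of 0.429, 1 and 0.486. On leaving out 1 library these differences ranged over 0.01 to 0.22, -0.16 to 0.08 and -0.3 to -0.08. The last was -0.3 without SIRT5F101L replicate 4. The ratio of Psmb10 to Psmb7 has no meaning with Psmb10 at 0.

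**Figure D3:**
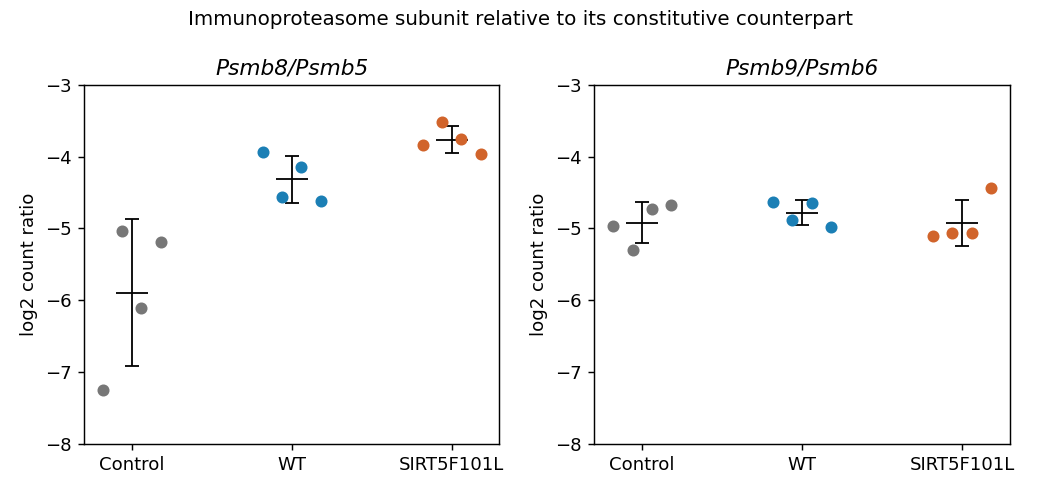
Log2 count ratios of Psmb8 to Psmb5 and of Psmb9 to Psmb6 in each library, with group mean and SD (4 libraries per group). The Psmb8 ratio lies higher in WT (mean -4.31) and SIRT5F101L (-3.77) than in Control (-5.89), whose lowest library is replicate 1 at -7.25, while the Psmb9 ratios of the 3 groups overlap. The counts of Psmb5 are uncertain, as given in the text.

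The 20S core is the barrel that both kinds of proteasome share. Of 12 further core subunits, none was higher and 4 were lower in WT (Psmb1, Psmb2, Psma5 and Psma8, median log2 fold change of the 12 -0.15), beside 28.1% of all genes called lower. In SIRT5F101L none was higher and 8 were lower (median -0.24), beside 30.7% of all genes. Psmb1 fell from 230 ± 5.81 CPM in Control to 173 ± 18.1 in WT (log2 fold change -0.41, adjusted p = 0.000606) and 163 ± 26.5 in SIRT5F101L (-0.49, adjusted p = 9e-05). Psma5 was at 75 ± 2.53, 63.7 ± 7.37 and 58.1 ± 5.75 CPM (-0.24, adjusted p = 0.0183, and -0.37, adjusted p = 0.000642), and its call in WT was lost without WT replicate 1 (0.0761) or 2 (0.0627). Psma8, the rare germ-cell alpha subunit, was at 5.4 ± 1.03, 3.07 ± 0.322 and 4.14 ± 0.339 CPM (-0.81, adjusted p = 0.000383, and -0.39, adjusted p = 0.0457), and its call in SIRT5F101L was lost in 14 of 19 alternatives. These include leaving out Control replicate 2, 3 or 4, WT replicate 1, 2 or 4, or any SIRT5F101L library (adjusted p 0.0501 to 0.178).

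The 19S regulator, which unfolds and feeds proteins into the core, showed 3 of 18 subunits higher and 1 lower in WT (median 0.07), and 5 higher and 1 lower in SIRT5F101L (median -0.01). Over all genes the shares were 28.7% and 28.1% in WT and 30.0% and 30.7% in SIRT5F101L, so neither count of higher subunits exceeded the background. Psmd2 rose from 335 ± 19 CPM to 418 ± 12.9 in WT (log2 fold change 0.32, adjusted p = 9.21e-05) and 410 ± 19.3 in SIRT5F101L (0.29, adjusted p = 0.000223). Psmc3 rose too (0.32 and 0.24, adjusted p = 0.00209 and 0.0138), by 0.15 in SIRT5F101L without its replicate 1 (adjusted p = 0.0377). Psmd11 was called in both (0.25, adjusted p = 0.00393, and 0.16, adjusted p = 0.0424), the second call being lost in 10 of 19 alternatives. These include leaving out Control replicate 2, 3 or 4, WT replicate 2 or 3, or SIRT5F101L replicate 1, 2 or 3 (adjusted p 0.0551 to 0.155). In SIRT5F101L the other 2 higher subunits were Psmd1 (0.22) and Psmd14 (0.16), the latter lost in 8 of 19 alternatives, among them leaving out Control replicate 1, 3 or 4 or SIRT5F101L replicate 2, 3 or 4. The 1 lower subunit was Psmd6 in both groups (-0.18 and -0.25). Its call in WT was lost in 11 of 19, among them leaving out any Control library, WT replicate 1, 2 or 3, or SIRT5F101L replicate 2 or 3. Leaving out SIRT5F101L replicate 1 gave 5 higher and 1 lower in WT, and 4 higher and 6 lower in SIRT5F101L. Upper-quartile scaling gave 3 higher and 5 lower in SIRT5F101L, so which direction had more calls there depended on the scaling.

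Among activators and assembly factors of the proteasome, 8 of 9 were tested. In WT, Psme4, an activator cap, was higher (log2 fold change 0.28, adjusted p = 0.00171; 28.7% of all genes were) and the assembly chaperone Psmg2 lower (-0.47, adjusted p = 0.000739; 28.1% of all genes). In SIRT5F101L, Psme4 was higher (0.38, adjusted p = 8.55e-05), beside 30.0% of all genes, and Psmg1, Psmg2, Psmg4 and Psme2 were lower, beside 30.7%. The call of Psmg4 (-0.50) was lost without Control replicate 2 or SIRT5F101L replicate 2 or 3, and its value was -0.77 without SIRT5F101L replicate 1. Psmg2 went from 29.7 ± 0.723 CPM in Control to 21.4 ± 2.03 in WT and 18.5 ± 3.42 in SIRT5F101L. The interferon-inducible cap PA28 is made of Psme1 and Psme2. Psme1 was not called (0.03 and -0.09; -0.18 in SIRT5F101L, adjusted p = 0.0201, without its replicate 1), and Psme2 was at 77.7 ± 3.99, 70.9 ± 6.15 and 62.3 ± 11.5 CPM (-0.13, adjusted p = 0.254, and -0.32, adjusted p = 0.00741). The median of the list was -0.03 in WT and -0.27 in SIRT5F101L.

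Of 10 tested loading chaperones and trimming peptidases, 5 were higher and 1 lower in WT, and 6 higher and 3 lower in SIRT5F101L (medians 0.18 and 0.27). The shares over all genes were 28.7% higher and 28.1% lower in WT, and 30.0% and 30.7% in SIRT5F101L. Npepps, a cytosolic aminopeptidase, rose from 135 ± 7.06 CPM to 251 ± 9.98 in WT (log2 fold change 0.89, adjusted p = 1.18e-10) and 264 ± 15.8 in SIRT5F101L (0.96, adjusted p = 3.06e-11). Lnpep, an endosomal aminopeptidase used in cross-presentation, rose by 0.44 and 0.65 (adjusted p = 0.000344 and 4.1e-06). Canx, the chaperone calnexin that folds the heavy chain, went from 653 ± 30.7 CPM to 800 ± 38.7 and 851 ± 25.1 (0.29, adjusted p = 0.000205, and 0.38, adjusted p = 9.29e-06). The lower genes were the peptide loading complex partner Pdia3 in both groups (-0.16 and -0.18, adjusted p = 0.0175 and 0.00921), and in SIRT5F101L also calreticulin (Calr, -0.19, adjusted p = 0.0124) and Ganab (-0.15, adjusted p = 0.0438). These calls were lost without Control replicate 3 for Pdia3 in WT (0.0541), without SIRT5F101L replicate 3 for Calr (0.0586), and in 12 of 19 alternatives for Ganab, among them leaving out Control replicate 1, 3 or 4, any WT library, or SIRT5F101L replicate 2 or 3. Tapbpl was listed at 0.

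Of 20 listed class I and class I-like heavy chains outside the 10 members, 10 were tested, with 4 higher and 3 lower in WT and 5 higher and 3 lower in SIRT5F101L (medians 0.30 and 0.31). Beside 28.1% and 30.7% of all genes called lower and 28.7% and 30.0% higher, the lower counts were near the background. H2-Q4, a nonclassical chain, rose from 24.6 ± 1.47 CPM to 51.3 ± 2.43 in WT (log2 fold change 1.06, adjusted p = 5.35e-10) and 55.9 ± 5.73 in SIRT5F101L (1.18, adjusted p = 8.48e-11). H2-T22 went from 117 ± 7.98 CPM to 177 ± 11.4 and 167 ± 17.8 (0.61 and 0.52, adjusted p = 7.93e-07 and 6.07e-06). The other higher genes were the rare H2-Q6 (1.79 and 1.61) and H2-Q10 (1.88 and 2.46), and in SIRT5F101L H2-Q7 (0.90, adjusted p = 0.0347). That call of H2-Q7 was lost in 6 of 19 alternatives, among them DESeq2 (0.105) and leaving out Control replicate 2 (0.0923) or 3 (0.106) or SIRT5F101L replicate 2 (0.116). In WT its log2 fold change was 0.53 (adjusted p = 0.23), and it was called with no filter on low counts (0.0353) or without Control replicate 1 (0.0203). Its values in WT and SIRT5F101L were 1.03 and 1.41 without Control replicate 1, and 0.18 and 0.55 without Control replicate 2. These chains resemble each other and H2-D1, so their counts may be partly shared.

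Fcgrt, Cd1d1 and Mr1 were the lower genes in both groups. Fcgrt, the neonatal Fc receptor, fell from 100 ± 5.37 CPM to 43.1 ± 3.96 in WT (log2 fold change -1.21, adjusted p = 1.08e-09) and 39.2 ± 6.85 in SIRT5F101L (-1.35, adjusted p = 2.08e-10). Cd1d1, which presents lipids, fell by 0.71 and 0.80 on the log2 scale, and Mr1, which presents vitamin B metabolites, by 0.29 and 0.18. The call of Mr1 in SIRT5F101L was lost in 9 of 19 alternatives, among them leaving out Control replicate 1, 2 or 3 or SIRT5F101L replicate 1, 3 or 4.

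Class II presentation, the route of professional antigen-presenting cells, had 7 of 12 genes tested, with 1 higher and 3 lower in each plasmid group (medians -0.32 and -0.39), beside 28.7% and 30.0% of all genes higher and 28.1% and 30.7% lower. The higher gene was H2-Ab1, a class II beta chain, at 9.54 ± 1.37, 15.9 ± 1.02 and 15.9 ± 2.5 CPM (log2 fold change 0.73 in both, adjusted p = 3.37e-05 and 3.13e-05). Its alpha chain partner H2-Aa had at most 4 counts in a library. The lower genes were Ctss, the protease cathepsin S, at 25.9 ± 1.86, 8.64 ± 0.526 and 8.02 ± 1.93 CPM (-1.58 and -1.68, adjusted p = 1.66e-09 and 6.32e-10), H2-DMb1 (-0.59 and -0.78, adjusted p = 0.000124 and 4.95e-06), and Ifi30 (-0.32 and -0.39, adjusted p = 0.00887 and 0.00182). H2-DMb1 lies next to Psmb9 on chromosome 17, where the order in RefSeq is H2-DMb1, Psmb9, Tap1, Psmb8, Tap2. Of these 5 neighbours, H2-DMb1, Tap1 and Tap2 were lower and Psmb8 higher in both plasmid groups, and Psmb9 was lower in SIRT5F101L, with the limits given above for Tap2 in WT and for Psmb9.

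Of 24 genes of interferon signalling and factors known to act on class I start regions, all of them tested, 9 were higher and 7 lower in WT (median 0.05), and 10 higher and 8 lower in SIRT5F101L (median 0.12). All genes gave 28.7% and 28.1% in WT and 30.0% and 30.7% in SIRT5F101L, and the counts of lower genes were near these shares. Irf7, a master factor of type I interferon genes, was at 150, 143, 148 and 135 CPM in Control, at 425, 456, 471 and 458 in WT, and at 502, 447, 431 and 420 in SIRT5F101L, with no overlap. Its log2 fold change was 1.65 in both groups (adjusted p = 1.62e-14 and 1.71e-14). Nfkb1, the p105 and p50 subunit of NF-kB, rose from 57 ± 2.24 CPM to 109 ± 5.42 in WT (0.94, adjusted p = 1.21e-10) and 119 ± 8.37 in SIRT5F101L (1.06, adjusted p = 1.62e-11). Of 7 interferon ligand genes none passed the filter: Ifnb1 had at most 3 counts in a library, Ifne at most 1, and the other 5 none.

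**Figure D4:**
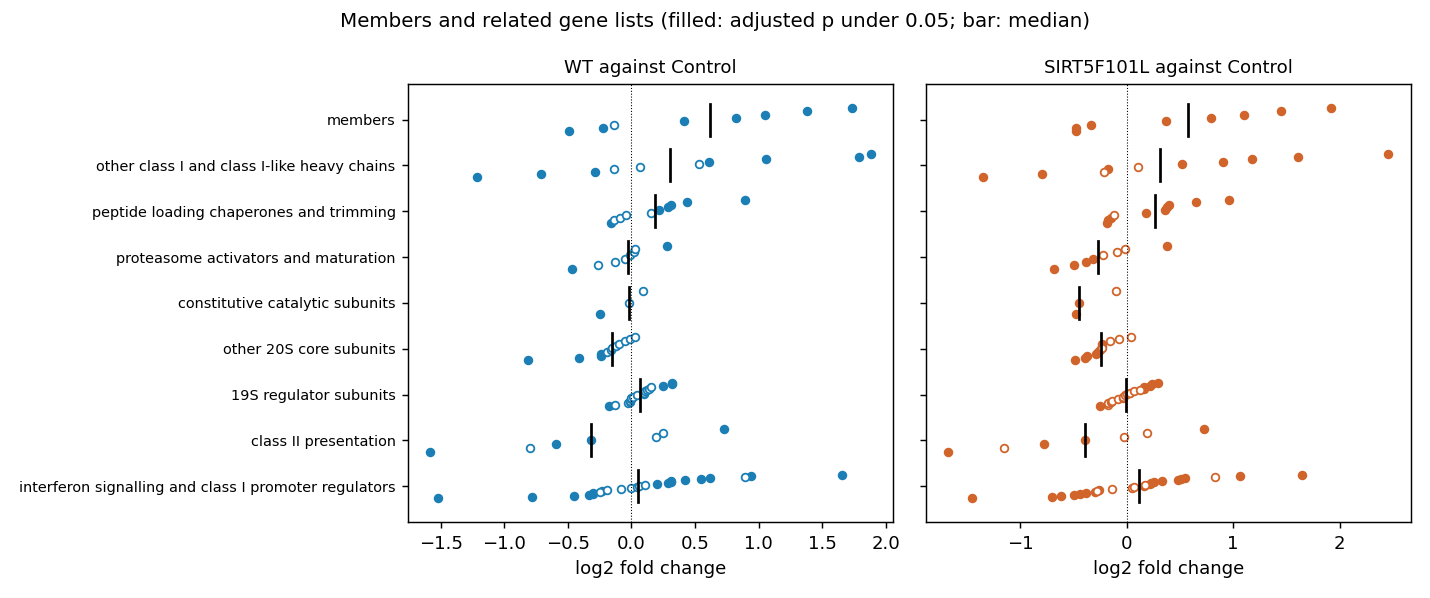
Log2 fold changes against Control of the 8 tested members and of the genes in each related list, for WT and SIRT5F101L, with 1 point per tested gene, filled points for called genes and a bar at the median. The core subunits of the proteasome lie mostly below 0 (medians -0.15 and -0.24 for the 12 further subunits), the chaperones and peptidases mostly above 0 (0.18 and 0.27), and the interferon list spreads to both sides.

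Of the 92 tested genes of the 9 related lists, 23 were higher and 21 lower in WT, beside 28.7% and 28.1% of all genes. In SIRT5F101L 28 were higher and 32 lower, beside 30.0% and 30.7% of all genes. Over 3 alternatives the counts were 22 to 26 higher and 20 to 26 lower in WT. In SIRT5F101L they were 22 to 28 and 29 to 41. The counts were not tested against the shares. Between SIRT5F101L and WT none was called. Without SIRT5F101L replicate 1, 5 were higher and 20 lower in SIRT5F101L than in WT, while calls over the whole table went from 6 genes to 2212 (6.66% of 14528 tested higher and 8.57% lower). The lower ones were the 3 constitutive catalytic subunits, 6 further core subunits, 3 subunits of the 19S regulator, 5 activators and assembly factors, 1 class I-like chain (Fcgrt, log2 difference -0.26, adjusted p = 0.0157) and 2 genes of the interferon list. The 8 tested members still gave no call. These calls rest on 3 libraries of the mutant.

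The genes whose levels followed the members' mean standardised log2 CPM most closely over the 12 libraries were Atg4d (Pearson r = 0.948), Adamtsl5 (0.946), Arfip2 (0.945), Spg7 (0.942) and Mgat1 (0.940), of 10147 candidates. Once group means were subtracted they were Fahd2a (0.970), Emilin1 (0.957), Erf (0.955), Fam214b (0.939) and Hnrnpm (0.934). The lists have no gene in common. These correlations describe libraries that share groups and scaling and carry no test.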

How the data were processed

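The authors deposited 1 table of raw read counts by Ensembl gene for each library. Per the submitters' processing notes, HISAT2 2.2.1 and HTSeq 2.0.2 were used, with builds GRCm39 and mm39; the annotation release and strand setting are not given in the sources used here. Per the labels' protocols, libraries were made from poly(A) RNA and read as 150 bp pairs. Symbols came from a supplied Ensembl table (52029 of 57010 IDs).

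A quasi-likelihood model with a mean per group was fitted to all 12 libraries in edgeR 4.0.16 under R 4.3.3 (9 residual degrees of freedom), after TMM scaling and filterByExpr by group. P-values are 2-sided and Benjamini-Hochberg adjusted over 14253 genes, with 0.05 as threshold. Intervals of 95% are the fitted value plus or minus the t quantile times the SE. Subunit ratios used log2 counts with 0.5 added and an exact permutation test over 70 arrangements. The edgeR script was tested on simulated data. DESeq2 1.42.0, other scalings, filters, a robust prior, fits of 8 libraries and leaving out each library were the alternatives.

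The members, gene lists and tests were chosen with earlier results of these data known. Named genes are the members, their constitutive counterparts, Sirt5, Col2a1, the 3 genes of each related list with the lowest adjusted p against Control, genes in counts of 5 or fewer, and the 5 most correlated genes. Psme1, Calr and Ganab, the listing of genes at 0 and the counts over neighbours were chosen after their values were seen. Some items that this rule takes are not reported here. Replicate numbers follow accession order and pair nothing. Separate cultures or animals are not stated, so p-values measure the spread between these libraries, which may be technical. The count floor covers counting error only. Copies of at least 95% identity were searched with BLAST 2.17.0.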

Additional observations from a re-analysis of the deposited data

Results flagged for a closer look

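Among 14 measures screened in 3 groups of 4 libraries (42 groups of values), 5 had a library far from the other 3 by Dixon's ratio at its 95% critical value. Chance gives about 1 in 20, or 2.1 of 42. SIRT5F101L replicate 1 was at 1040 CPM for H2-K1, with the others at 809 to 825 (ratio 0.93), and at 1510 for H2-D1, with the others at 1080 to 1150 (ratio 0.837). The same library was at 83.3 CPM for Psmb7, the others at 56.5 to 59.8 (ratio 0.874). SIRT5F101L replicate 2 was at 1.23 CPM for Sirt5, the others at 0.481 to 0.601 (ratio 0.84). SIRT5F101L replicate 4 had a log2 ratio of Psmb9 to Psmb6 counts of -4.44, the others -5.11 to -5.06 (ratio 0.935).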

How the results depend on the processing

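For the genes rerun under the 19 alternatives (the members, their counterparts, Sirt5, Col2a1 and the list genes named), no called fold change turned its direction. For list genes in counts of 5 or fewer this rerun was added after seeing the data. Counts over lists were rerun under 3 alternatives. The members called stayed at 6 to 7 in WT against Control, 7 to 8 in SIRT5F101L against Control and 0 between the plasmid groups. Genes called between SIRT5F101L and WT, 6 as reported, were 354 with no filter on low counts, 44 by DESeq2, 2 with the robust prior and 2 when the 8 libraries were fitted alone. Leaving out 1 library gave 0 to 2212, with 2212 without SIRT5F101L replicate 1, 3 without Control replicate 2 and 0 without any of the other 10. Without SIRT5F101L replicate 1, list genes called higher and lower against WT were 5 and 20 in all: 0 and 3 constitutive catalytic subunits, 0 and 6 further core subunits, 0 and 3 of the 19S regulator, 1 and 5 activators and assembly factors, 1 and 0 chaperones and peptidases, 0 and 1 class I-like chains, and 3 and 2 of the interferon list. Against Control the same omission gave 5 higher 19S subunits in WT and 6 lower ones in SIRT5F101L, and 2 lower activators and 2 lower chaperones in WT. Upper-quartile scaling, which moved the median of all genes by less than 0.1, gave 3 higher and 5 lower 19S subunits in SIRT5F101L, and 2 lower activators and 3 lower chaperones in WT. RLE scaling gave 0 lower 19S subunits in WT. The Psmb8 to Psmb5 difference ranged over 1.13 to 1.87 in WT and 1.68 to 2.41 in SIRT5F101L against Control, and 0.45 to 0.68 between the plasmid groups, on leaving out 1 library. The cause of these shifts was not tested. No paired analysis was possible because the labels carry no replicate numbers that groups share. Depth limits Psmb8 (5 to 62 counts) and Sirt5 (1 to 19).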
